A study of Caenorhabditis elegans with 2 samples.

Results

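In the optimal list of DVE-1 peaks, 270 peaks had their summit within 300 bp of a gene annotated as a transfer RNA (tRNA) gene on the 6 nuclear chromosomes, and 6992 did not, so the tRNA peaks were 3.72% of the list (95% exact binomial interval 3.30 to 4.18). The windows of 300 bp around these genes cover 0.376% of the nuclear bases. The optimal list holds the regions that passed the authors' threshold on reproducibility, and the summit is the base that the list gives as the highest point of a peak. A place in this list does not mean that a peak was found in each replicate. Of the 270 tRNA peaks, 14 lacked a matching summit within 100 bp in a replicate. Membership was set by position in the ce11 (WBcel235) genome, and the signal of a peak played no part beyond its place in the optimal list. DVE-1 is a SATB-like homeodomain protein of Caenorhabditis elegans that takes part in the transcriptional response to mitochondrial stress. Its binding was mapped by ChIP-seq (chromatin immunoprecipitation followed by sequencing) in whole hermaphrodites at L4, the last larval stage, in 1 group of 2 biological replicates. The animals were of the transgenic strain OP398, which carries the unc-119(tm4063) allele on chromosome III and the transgene wgIs398. The transgene encodes DVE-1 with GFP and FLAG at its C-terminus, all animals of both replicates carried it, and their age is labelled unknown. Whole animals were used, so a peak cannot be placed in a tissue, and the antibody is labelled in 2 ways: the description names one against GFP, which would recover the tagged protein, while the antibody field reads dve-1. Samples without the tag were not analysed here, and library depth is unknown, since the lists hold no counts of reads.

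Transfer RNAs carry amino acids to the ribosome. Their genes are short and are transcribed by RNA polymerase III, whose start signals lie inside the gene: the A box near its beginning and the B box near its end are bound by TFIIIC, which brings TFIIIB to the DNA just upstream of the gene, and transcription ends at a run of T. The nematode genome holds many identical copies of tRNA genes, scattered over all chromosomes and often in introns of other genes.

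The genes beside 6 of the strongest of these peaks are shown first, so that the internal signals can be read in their letters where present. Each sequence starts 60 bases before the gene, runs through it on its own strand and ends 30 bases after it, and the capitals mark the A box letters (TGG, 6 bases of any kind and GG) and the B box letters (GTTCNANNC) where the gene holds them. Coordinates are ce11 and cover the printed bases: C18A11.t2 (arginine, anticodon ACG) at chrX:8036655-8036817 on the minus strand, T23F1.t1 (lysine, TTT) at chrV:15465026-15465188 on the plus strand, W09G10.t3 (threonine, AGT) at chrII:3519056-3519217 on the minus strand, B0350.t1 (lysine, CTT) at chrIV:5967100-5967262 on the plus strand, C28G1.t1 (glutamate, TTC) at chrX:8836053-8836214 on the plus strand and R04D3.t2 (valine, TAC) at chrX:13306974-13307136 on the plus strand.
C18A11.t2: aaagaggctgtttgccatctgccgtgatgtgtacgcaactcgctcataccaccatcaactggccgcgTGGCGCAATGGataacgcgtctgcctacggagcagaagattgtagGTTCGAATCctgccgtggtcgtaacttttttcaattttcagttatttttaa
T23F1.t1: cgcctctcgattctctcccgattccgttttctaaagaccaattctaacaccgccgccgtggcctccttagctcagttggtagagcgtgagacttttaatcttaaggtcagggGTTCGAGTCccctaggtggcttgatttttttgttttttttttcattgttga
W09G10.t3: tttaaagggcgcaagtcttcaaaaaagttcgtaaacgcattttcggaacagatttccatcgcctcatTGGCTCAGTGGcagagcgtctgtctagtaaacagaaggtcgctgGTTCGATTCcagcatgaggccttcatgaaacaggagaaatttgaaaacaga
B0350.t1: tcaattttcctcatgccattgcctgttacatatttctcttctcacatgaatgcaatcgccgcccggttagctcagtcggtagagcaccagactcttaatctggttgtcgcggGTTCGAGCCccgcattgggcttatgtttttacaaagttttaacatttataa
C28G1.t1: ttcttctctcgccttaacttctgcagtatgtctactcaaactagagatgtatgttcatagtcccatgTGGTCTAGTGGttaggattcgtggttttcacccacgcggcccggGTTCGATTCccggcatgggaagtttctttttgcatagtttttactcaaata
R04D3.t2: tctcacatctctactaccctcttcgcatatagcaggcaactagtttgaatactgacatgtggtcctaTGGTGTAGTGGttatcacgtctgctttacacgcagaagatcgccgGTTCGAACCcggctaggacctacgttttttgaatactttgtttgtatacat
All 6 genes hold the B box letters. The lysine genes T23F1.t1 and B0350.t1 have no match to the A box letters as searched.

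The next pair has the same gene sequence and a different state. W09D6.t2 and F02H6.t1 are 2 of 24 identical proline tRNA genes (anticodon TGG), and they are shown because the letters of the gene are the same while the flanks differ. W09D6.t2, at chrIII:11066818-11066979 on the minus strand with its flanks, lies in an intron of rsa-2. With each peak assigned to its nearest tRNA gene, it is the copy with the strongest peak, 105.8 pooled. W09D6.t1, another of the 24 copies, lies on the plus strand 78 bp from the same summit. A stronger peak (269.1 pooled) also lay near T23F1.t2, a proline gene with anticodon TGG, but was assigned to the nearer lysine gene T23F1.t1. F02H6.t1, at chrIV:14225042-14225203 on the plus strand with its flanks, lies between genes and had its nearest optimal summit 5218 bp away.
W09D6.t2: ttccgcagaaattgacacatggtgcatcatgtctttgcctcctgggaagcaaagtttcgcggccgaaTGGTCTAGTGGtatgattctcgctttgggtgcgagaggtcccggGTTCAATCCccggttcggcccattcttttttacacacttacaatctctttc
F02H6.t1: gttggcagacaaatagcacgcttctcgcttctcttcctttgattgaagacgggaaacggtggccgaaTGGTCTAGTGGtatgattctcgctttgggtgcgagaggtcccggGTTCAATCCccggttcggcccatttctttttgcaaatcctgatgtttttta
The capitals mark the A box and B box letters, which stand at the same places in both genes.

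Of the 612 tRNA genes, 306 (50%, interval 45.97 to 54.03) had an optimal summit within 300 bp and are called marked below. Over all 46890 annotated genes of every kind the share was 13.5%, measured in the same way. That set includes 15363 piRNA genes, of which 1.68% were marked. The share was 21.65% for protein-coding genes and 26.29% for lincRNA genes. Other short RNA genes were marked less often than tRNA genes and, for the first 2 kinds, more often than genes at large, with 105 of 346 snoRNA genes (30.35%), 37 of 129 snRNA genes (28.68%) and 37 of 261 miRNA genes (14.18%). None of the 20 rRNA genes of the nuclear chromosomes was marked, which leaves an interval up to 16.84%. The tRNA peaks were separate from those of the other short RNA genes in nearly every case, since 1 of the 270 also lay within 300 bp of an snRNA gene, 1 of a miRNA gene and 0 of a snoRNA gene.

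Defective relatives of tRNA genes had few peaks. Of 209 genes annotated as tRNA pseudogenes, 6 were marked (2.87%, interval 1.06 to 6.14), and 1 of these 6, ZK678.t4 on X, has an intact tRNA gene within 300 bp. Among the 205 pseudogenes with no tRNA gene that near, 5 were marked (2.44%, interval 0.797 to 5.60). The intervals for genes and pseudogenes are far apart. T08B2.t1 on chromosome I had the strongest of these peaks, with a pooled signal of 172.9, 67.28 in replicate 1 and 106.0 in replicate 2, and D1046.t1 on chromosome IV had a pooled signal of 147.5, with 74.98 and 75.73 in the replicates. In both cases the summit lay inside the pseudogene and also in the promoter window of a protein-coding gene. F19H8.t1 on II had a signal of 48.13 with the summit inside, Y53G8B.t9 on III had 49.81 with the summit 72 bp away, and F45H7.t1 on III had 41.97 with the summit 220 bp away. The weaker 3 peaks lay outside promoter windows.

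**Figure D1:**
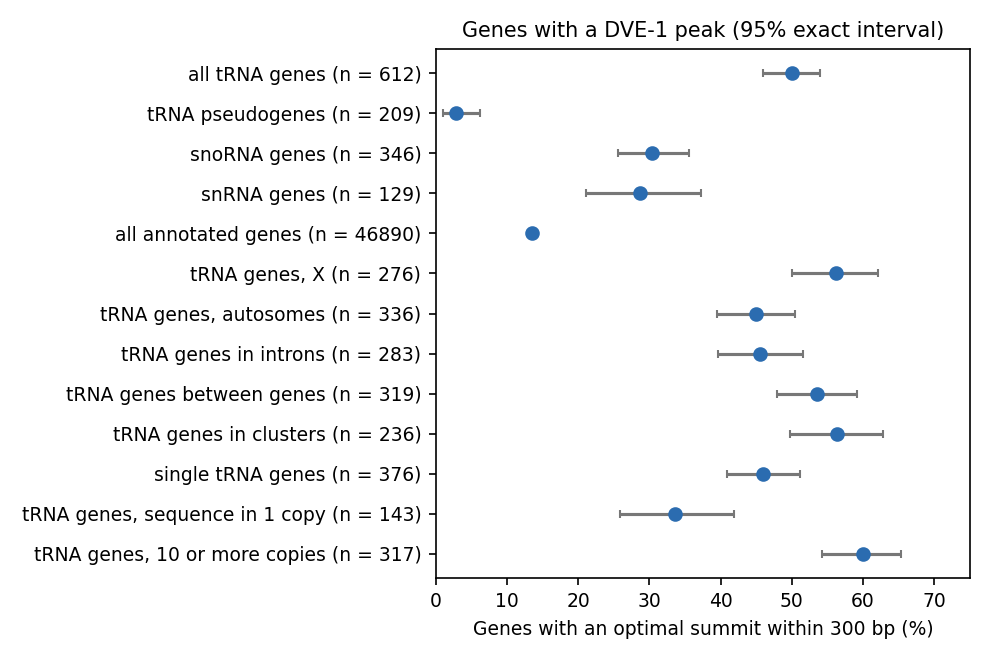
Percent of genes with an optimal DVE-1 summit within 300 bp (x axis) for each group of genes (y axis, with the number of genes), with points for the share and bars for the 95% exact binomial interval over genes. All tRNA genes stand at 50%, tRNA pseudogenes at 2.87% and all annotated genes at 13.5%.

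The rule that a summit lies within 300 bp cut through a sparse region. The members farthest from their tRNA gene lay at 251, 259 and 263 bp (C18A11.t2, Y38E10A.t1 and C35E7.t1), and the nearest peaks beyond the limit lay at 366, 384 and 404 bp. Of the 270 peaks, 228 had a single tRNA gene within 300 bp, 41 had 2 and 1 had 3. A peak near several tRNA genes is described by the nearest one. In the other direction, 7 tRNA genes had 2 or more summits. Among the 306 unmarked genes, 86 (28.1%) had some region within 300 bp in the relaxed list of the pooled replicates, which holds 30000 regions, and 220 had none. Taking from each replicate as many of its strongest regions as the optimal list holds, called its top regions below, a region lay within 300 bp of 35 unmarked genes in replicate 1 and of 25 in replicate 2.

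Summits lay in or close to the tRNA genes, with positions measured from the 5′ end only. The median position was 19 bp after the 5′ end of the nearest tRNA gene, with quartiles at -18.75 and 56 bp and a range of -259 to 334 bp, where negative values lie upstream. Within 50 bp of the 5′ end on either side lay 176 summits (65.19%), and within 100 bp lay 239 (88.52%). By side, 102 summits (37.78%, interval 31.97 to 43.85) were upstream of the gene, 131 (48.52%, 42.42 to 54.65) were inside it and 37 (13.7%, 9.84 to 18.39) were downstream. Upstream summits were close, with a median of 25 bp before the 5′ end, and downstream ones lay at a median of 113 bp after it. The median pooled signal was 65.83 upstream, 61.14 inside and 72.82 downstream, a small difference beside the spread of the peaks.

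Strand made little difference to this position, and it was similar in both replicates. Beside the 133 peaks at genes of the plus strand the median was 20 bp, and beside the 137 at genes of the minus strand it was 17 bp. The summits of the matching regions in replicate 1 had a median of 23.5 bp (260 peaks) and those in replicate 2 a median of 16 bp (266 peaks). The 228 peaks with a single tRNA gene nearby gave a median of 20 bp. A single summit is less certain than these medians: the summits of the 2 replicates at the same tRNA peak were 34.5 bp apart at the median, against 27 bp for the other optimal peaks. In addition, 247 of the 270 tRNA peaks (91.48%) were regions of exactly 364 bp with the summit at the centre, a share that was 73.38% for the other 6992 peaks. The medians of the upstream and inside summits, -25 and 33 bp, are separated by less than 2 such distances between replicates.

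**Figure D2:**
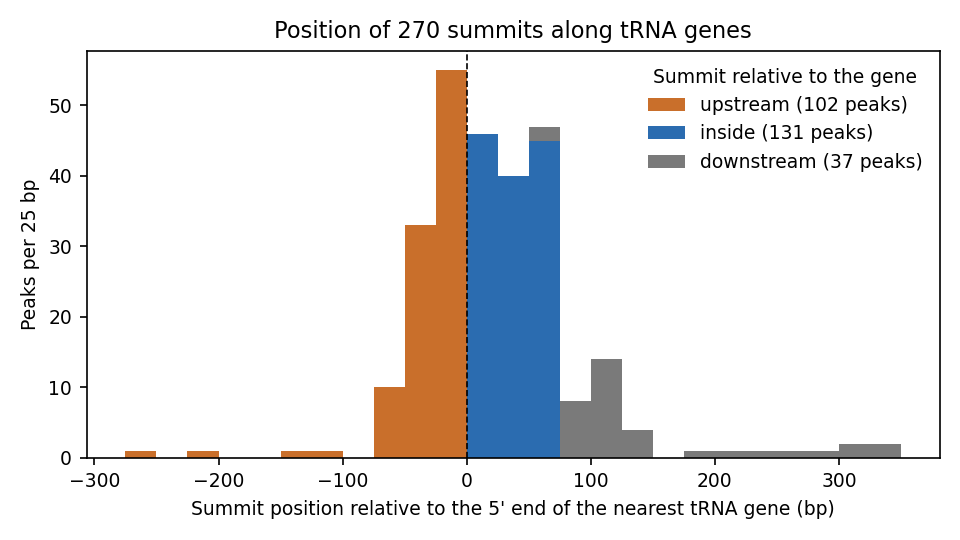
Number of peaks per 25 bp (y axis) by the distance of the summit from the 5′ end of the nearest tRNA gene in the direction of transcription (x axis, bp, negative values upstream), with colours for summits upstream, inside and downstream of the gene. Of the 270 summits, 239 lie within 100 bp of the 5′ end.

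The internal signals were found in marked and unmarked genes alike. The B box letters GTTCNANNC, searched on the strand of the gene, were in 297 of 306 marked genes (97.06%) and 290 of 306 unmarked genes (94.77%). The A box letters were in 172 marked (56.21%) and 169 unmarked genes (55.23%), and a run TTTT within 40 bp after the gene was beside 304 (99.35%) and 301 (98.37%). The A box letters are 1 fixed pattern with 1 spacing, so a gene without a match may still hold an A box. These shares therefore count matches to the pattern and not genes with an A box. Among pseudogenes, 60.29% matched the A box letters and 78.95% the B box letters. In the 72 bases centred on the summit, searched on both strands, 87 of 270 tRNA peaks (32.22%) held the B box letters and 81 (30%) the A box letters, compared with 2.06% and 6.15% of the other 6992 peaks. The same windows held GAGACG, letters picked from earlier results on these peaks, at 8 tRNA peaks (2.96%, interval 1.29 to 5.76) and at 734 other peaks (10.5%). The tRNA genes make up the windows here, so their own letters are counted in them.

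Signal at tRNA peaks was of middle strength and narrow in range. The pooled signal, the value that the authors' peak caller gave each region of the pooled list, ran from 35.11 to 400.2 with a median of 63.67 and quartiles at 48.91 and 80.93. The other 6992 peaks had a median of 64.74, quartiles at 46.41 and 99.15 and a highest value of 918. The medians were close, while the upper end was thinner at tRNA genes. The strongest 3631 peaks included 131 tRNA peaks (48.52%) and 50.06% of the others, but the strongest 726 included 11 tRNA peaks (4.07%) and 10.23% of the others.

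Both replicates held most tRNA peaks. A summit among the top regions of each replicate lay within 100 bp for 197 of the 270 (72.96%, interval 67.25 to 78.17), beside 71.6% of all optimal peaks. A further 24 were among the top regions of replicate 1 only, 41 in replicate 2 only and 8 in neither. The median signal was 28.67 in replicate 1 and 36.04 in replicate 2, where all optimal peaks had medians of 29.42 and 37.76. Dividing by these medians gives a relative signal, which had a median of 0.972 over the 256 tRNA peaks matched in both replicates (quartiles 0.735 and 1.25), so tRNA peaks stood near the typical optimal peak in both libraries. The median log2 ratio of relative signal in replicate 1 over replicate 2 was -0.019 with an SD of 0.652 over peaks, beside an SD of 0.663 for the other peaks. Across the 256 peaks the signals of the replicates had a Spearman correlation of 0.571 and a Pearson correlation of the log2 values of 0.576. These are descriptions across peaks that share their control alignment, and the values were 0.710 and 0.697 over the other peaks. Signal at the other peaks also spans a wider range, and the reason for the lower correlations at tRNA peaks was not tested.

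**Figure D3:**
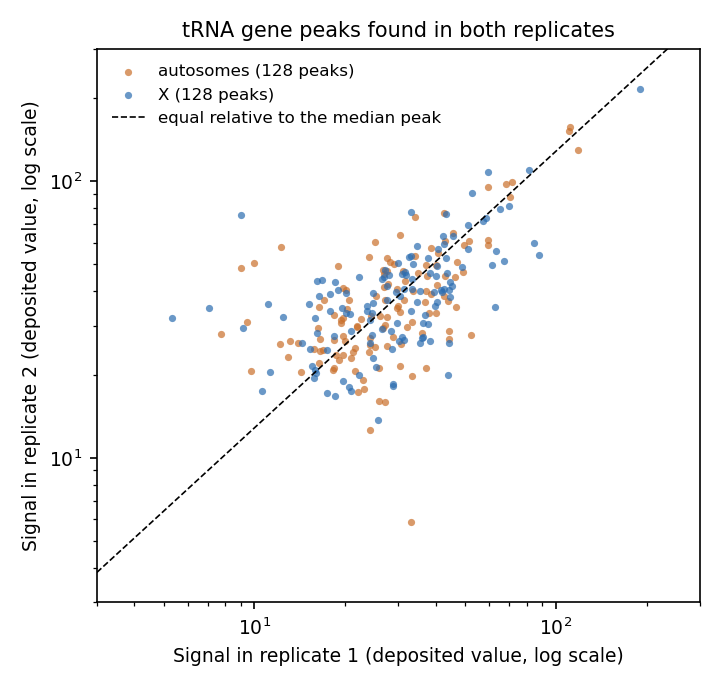
Deposited signal in replicate 1 (x axis, log scale) against replicate 2 (y axis, log scale) for the 256 tRNA peaks matched in both, with colours for X and autosomes. The dashed line marks equal signal relative to the median optimal peak, and the 128 X points and 128 autosomal points lie on both sides of it.

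The strongest peak, at C18A11.t2, stood apart from the rest. It ranked 22 in the optimal list with a pooled signal of 400.2, and its signal was 189.8 in replicate 1 and 215.5 in replicate 2, which is 6.08 ± 0.527 times the median optimal peak (SD, n = 2). Its summit (chrX:8036434) was also one of the farthest from its gene, 323 bp after the 5′ end and 251 bp past the gene. C18A11.13, a noncoding RNA gene that overlaps C18A11.t2 on the other strand, was 240 bp from the summit, and the nearest protein-coding genes, C34D10.1 and xol-1, were 4820 and 4879 bp away. A further summit of the optimal list lay 124 bp after the 5′ end of the same tRNA gene, with signals of 82.49 pooled, 16.11 in replicate 1 and 43.54 in replicate 2. The regions of these 2 summits start at the same base and overlap, and both end inside the tRNA gene. The stronger summit was thus not on the gene, although its region reached it, and the summit closer to the gene had a signal near the upper quartile of the tRNA peaks.

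The next 3 peaks were closer to their genes. At T23F1.t1, a lysine tRNA gene on chromosome V, the pooled signal was 269.1 with 111.7 in replicate 1 and 157.3 in replicate 2. The summit lay 33 bp past this gene and 34 bp from T23F1.t2, a proline tRNA gene (anticodon TGG) on the opposite strand, so it was about equally far from both. At W09G10.t3, a threonine tRNA gene on II, it was 259.9 with 110.7 and 151.5, and the summit lay 31 bp upstream, with the lysine tRNA gene W09G10.t2 at 62 bp. At B0350.t1, a lysine tRNA gene on IV, it was 234.7 with 118.0 and 129.4, and the summit lay 29 bp past the gene. Relative to the median optimal peak these were 3.98 ± 0.262, 3.89 ± 0.175 and 3.72 ± 0.413 (SD, n = 2). All 3 stood well above the typical tRNA peak in both replicates, but they were picked by the pooled signal of the same 2 replicates. The first 2 of these 3 peaks also lay in promoter windows of protein-coding genes, pqn-71 and rocf-1 for T23F1.t1 and clec-126 for W09G10.t3, whereas the gene nearest to the B0350.t1 peak, K02B2.6, was 4992 bp away.

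Below these, the signal fell gradually. C28G1.t1 (glutamate, X), which overlaps an exon of C28G1.2, had 181.8 pooled and 81.71 and 109.4 in replicates 1 and 2. R04D3.t2 (valine, X) had 170.9 pooled, 59.64 and 107.7, and F57F5.t1 (isoleucine, anticodon TAT, V) had 169.2 pooled, 71.55 and 99.73. F57F5.t1 was the single marked gene of 6 with that anticodon. On chromosome I, T23H4.t1 (glutamate) had 158.8 pooled, 68.31 and 97.33, M01E5.t1 (lysine) had 151.9, 70.3 and 87.49, and K07A1.t1 (serine) had 148, 59.45 and 95.24. The M01E5.t1 summit was also 69 bp from sls-2.9, an snRNA gene that makes a spliced leader RNA. On X, F01G12.t1 (glutamate) had 152.9 pooled, 70.04 and 81.39, C33G3.t2 (lysine) 143.7, 84.53 and 59.85, R11.t1 (tyrosine) 143.5, 65.2 and 79.23, F41D9.t3 (asparagine) 138.4, 87.7 and 54.26, and C53C7.t2 (serine) 137.4, 52.66 and 90.52. The C53C7.t2 summit also lay 76 bp from C53C7.t1, another serine tRNA gene. Promoter windows of protein-coding genes also held the summits at C28G1.t1 (C28G1.2 and sec-15), F57F5.t1 (gcy-33 and cpr-9) and K07A1.t1 (aqp-9). The other summits of this paragraph lay outside such windows. All 15 strongest, picked by the pooled signal of the same replicates, were among the top regions of both replicates.

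Among the 256 peaks matched in both replicates, those with the largest differences between replicates had pooled signals from 35.31 to 132.1. The 14 peaks without a match in a replicate have no ratio and are left out of this ranking. At C35E7.t1 (aspartate, I) the signal was 33.11 in replicate 1 and 5.87 in replicate 2, a log2 ratio of relative signals of 2.86. These values belong to a summit 334 bp after the 5′ end. An overlapping optimal region at the same gene, with its summit at 132 bp, had 75.35 pooled and 44.89 in replicate 2. It had no matching summit in replicate 1, so the ratio describes 1 summit and not the whole signal at this gene. At F28H6.t2 (histidine, X) the signal was 43.84 and 19.98, and at C14B9.t1 (methionine, III) 24.11 and 12.63, ratios of 1.49 and 1.29. In the other direction, C42D8.t1 (isoleucine, X) had 9.05 in replicate 1 and 75.21 in replicate 2, a log2 ratio of -2.70, and a pooled signal of 132.1. C06G1.t3 (aspartate, X) had 5.32 and 32.1 and Y22D7AL.t4 (glutamate, III) had 9.0 and 48.67, ratios of -2.23 and -2.07. The region at C42D8.t1 ranked 13327 in replicate 1, 957 in replicate 2 and 940 in the optimal list, which is shorter than the replicate lists.

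X-linked tRNA genes carried a large part of these peaks. Of the 270, 133 (49.26%) were on X, compared with 20.85% of the other optimal peaks. X also holds 276 of the 612 tRNA genes, and 155 of these were marked (56.16%, interval 50.08 to 62.1), beside 151 of the 336 autosomal genes (44.94%, 39.54 to 50.43). The intervals overlap at their ends. Single autosomes ranged from 24 of 78 genes on V (30.77%) to 36 of 64 on III (56.25%), with 43.94% on I, 46.48% on IV and 50.88% on II, so III had about the same share as X and V the lowest. The median pooled signal was 67.23 on X and 59.09 on the autosomes.

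Intronic tRNA genes were marked about as often as those between genes on X and somewhat less often on the autosomes. Of 283 tRNA genes in introns of protein-coding genes, 129 were marked (45.58%, interval 39.68 to 51.58), and of 319 between genes, 171 (53.61%, 47.96 to 59.18), with overlapping intervals. On X the shares were 55.79% in introns (53 of 95) and 56.11% between genes (101 of 180), and on the autosomes 40.43% (76 of 188) and 50.36% (70 of 139). The autosomal intervals, 33.35 to 47.81 and 41.76 to 58.94, overlap, and the difference between X and autosomes in this respect was not tested. The strand of the host did not separate the genes, since 73 of 161 on the same strand (45.34%) and 56 of 122 on the opposite strand (45.9%) were marked. The 10 genes that overlap an exon included 6 marked ones. The strongest intronic peaks were at F01G12.t1 in sur-7 and F41D9.t3 in sulp-3, given above, then F49D11.t1 (glycine, I) in F49D11.10 with 120 pooled, 59.49 and 58.71 in replicates 1 and 2, C02D4.t1 (isoleucine, X) in the receptor gene ser-2 with 116.8, 63.36 and 55.82, and F15B9.t1 (alanine, V) in the formin gene inft-2 with 109.3, 49.65 and 58.67.

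The tRNA peaks lay in promoter windows of protein-coding genes less often than other peaks. With windows from 1000 bp upstream to 200 bp downstream of annotated 5′ ends, 71 of the 270 (26.3%) fell in one, beside 55% of all optimal peaks and 56.08% of the others. The other surroundings differed somewhat between marked and unmarked tRNA genes. Another optimal peak, not at a tRNA gene, lay within 2000 bp of 67 marked genes (21.9%, interval 17.39 to 26.95) and of 35 unmarked ones (11.44%, 8.10 to 15.55). The median distance to the nearest 5′ end of a protein-coding gene was 1206 bp for marked and 1790 bp for unmarked genes, and the median GC content of the 100 bp upstream was 42% and 40.5%. Their part in the marking of tRNA genes was not tested.

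Clustered tRNA genes, those with another tRNA gene within 1000 bp, were marked in 133 of 236 cases (56.36%, interval 49.77 to 62.78) and single ones in 173 of 376 (46.01%, 40.89 to 51.2). A window of 300 bp can reach several genes of a cluster from 1 summit, and the shares were 45.34% and 44.41% when the summit had to lie within 100 bp. Peaks in clusters were weaker, with a median signal of 58.41 against 67.41, and 58 of 95 were found in both replicates against 139 of 175. The cluster with most peaks was Y65A5A.t1 to Y65A5A.t4 (chrIV:16398384-16400967, all on the plus strand), a run of alanine, alanine, valine and histidine tRNA genes with 1 peak on each. Their pooled signals were 56.05, 58.41, 64.44 and 54.16. The values were 24.35, 20.55, 25.21 and 21.96 in replicate 1 and 32.57, 37.08, 38.49 and 29.98 in replicate 2, so the 4 peaks were nearly equal in each library, and each summit lay inside its gene at 40 to 57 bp.

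The next clusters were on X. F22F1.t2 to F22F1.t7 (chrX:8154445-8156707) is a run of 6 genes with 3 peaks. The peak at F22F1.t7 (isoleucine) had 79.82 pooled, 29.83 in replicate 1 and 50.46 in replicate 2. The peak between F22F1.t2 (serine) and F22F1.t3 (aspartate) had 55.69, 16.34 and 38.37, and the peak by F22F1.t4 (serine) and F22F1.t5 (aspartate) had 42.55, 11.06 and 36. The last 2 were not among the top regions of both replicates, and F22F1.t6 (methionine) had no summit nearer than 405 bp. T01B4.t1 to T01B4.t4 (chrX:16298341-16300661) are 4 identical valine tRNA genes with no other copy in the genome, and T01B4.t3 and T01B4.t4 lie in an intron of the potassium channel gene twk-21. Peaks at T01B4.t1, T01B4.t2 and T01B4.t4 had pooled signals of 53.19, 47.72 and 81.06, while T01B4.t3, between them, had its nearest summit at 521 bp.

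Identical copies were not marked alike. The 612 genes have 200 distinct sequences. Of the 32 sequences with 5 or more copies, 31 had both marked and unmarked copies, and the exception was a glutamine sequence (anticodon CTG) with 5 of 5 marked. The glycine sequence with anticodon TCC had 19 of 29 copies marked, the lysine sequence with CTT 17 of 25, the proline sequence with TGG shown above 12 of 24 and the isoleucine sequence with AAT 9 of 19. Higher shares were found for the arginine sequence with ACG, of which all 10 copies are on X and 9 were marked, and for the cysteine sequence with GCA, with 10 of 12 marked, among them all 7 copies on X. Genes in a single copy were marked least often, 48 of 143 (33.57%, interval 25.89 to 41.94), and genes with 10 or more copies most often, 190 of 317 (59.94%, 54.31 to 65.37).

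The number of copies went with the uniqueness of the sequence around a gene. Of all stretches of 36 bases within a gene and the 100 bp on each side, those found once in the genome made up a median of 79.35% at marked and 79.75% at unmarked genes. Genes where at least 90% were unique had 20 of 71 marked (28.17%, interval 18.13 to 40.1), genes from 50 to 90% had 281 of 525 (53.52%, 49.15 to 57.86) and genes under 50% had 5 of 16. The median unique share was 89.92% at genes in 1 copy and 78.66% at genes with 10 or more copies. Read length and the handling of reads that fit several places are not stated in the labels, and the part of read placement in these shares was not tested.

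**Figure D4:**
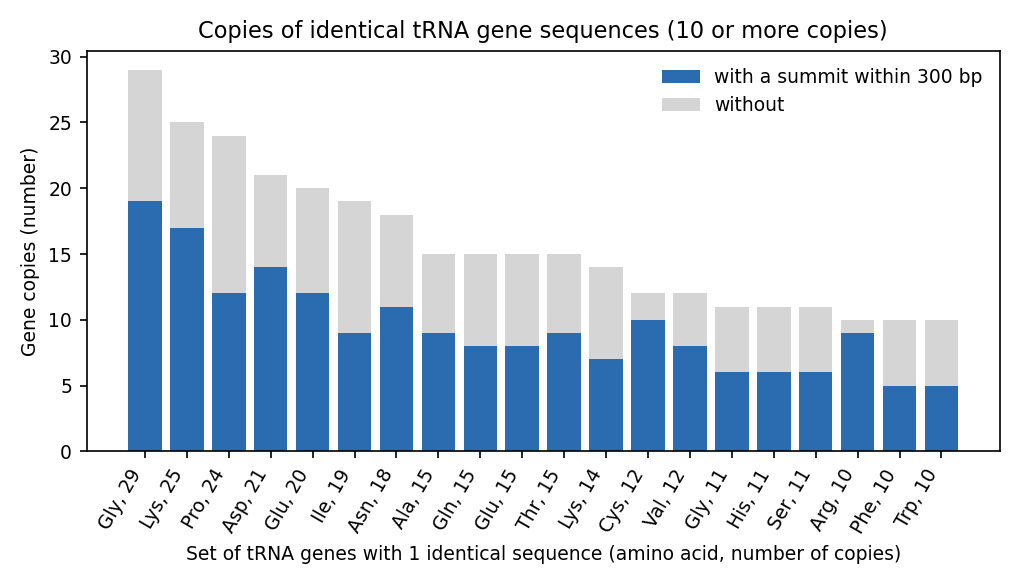
Number of gene copies (y axis) for each tRNA gene sequence with 10 or more identical copies (x axis, amino acid and number of copies), split into copies with and without an optimal summit within 300 bp. All 20 sequences have copies of both kinds, from 9 of 19 for the isoleucine sequence to 9 of 10 for the arginine sequence.

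All amino acids were represented. The single gene for selenocysteine tRNA, K11H12.t1 on IV, was marked, with 55.7 pooled, 20.28 in replicate 1 and 34.61 in replicate 2 and its summit 54 bp upstream. Among the 20 standard amino acids the share of marked genes ran from 31.58% for tyrosine (6 of 19) to 76.92% for cysteine (10 of 13), with 62.96% for aspartate (17 of 27), 61.29% for valine (19 of 31) and 56.52% for lysine (26 of 46) above the middle and 40% for both histidine and methionine (8 of 20 each) near the lower end. The intervals of the first and last, 46.19 to 94.96 and 12.58 to 56.55, overlap. Of 49 anticodons, 43 had a marked gene, and the 6 without one had 1 to 4 genes each. Among anticodons with 10 or more genes the extremes were arginine ACG, with 15 of 19 marked (78.95%, interval 54.43 to 93.95), and leucine AAG with 4 of 19 (21.05%, 6.05 to 45.57), arginine TCG with 2 of 10 and threonine TGT with 2 of 10. The first 2 intervals do not overlap, but they were picked as extremes among many families.

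Of the 15 peaks nearest to an arginine ACG gene, 10 lay on X and 5 on III and IV. Apart from the strongest at C18A11.t2 their pooled signals ran from 42.37 at M57.t1 to 90.99 at T06H11.t2, so the high share of marked genes was not matched by strong peaks. The unmarked genes were F33D11.t2 on I, with no summit within 11439 bp, and K01A12.t1, K01A12.t3 and F12D9.t5 on X, with the nearest summit at 345, 440 and 492 bp.

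Genes listed for the RNA polymerase III machinery and tRNA maturation, larp-1 among them, had an interval that includes the rate of all protein-coding genes. A list of 25 such genes had 21 that matched the annotation, and 6 of these (28.57%, interval 11.28 to 52.18) had an optimal summit in a promoter window, beside 21.7% of 19973 protein-coding genes. They were rpac-19, a subunit shared by RNA polymerases I and III, with a relative signal of 2.90 ± 0.648 (SD, n = 2), tftc-1, a TFIIIC subunit, with 0.952 ± 0.044, snpc-3.4, related to a subunit of the SNAPc complex of snRNA promoters, with 0.963 ± 0.200, rtcb-1, the tRNA ligase, with 1.31 ± 0.099, xpo-3, related to the tRNA exporter, with 0.827 ± 0.293, and larp-1, which encodes a La-related RNA-binding protein, with 5.46 ± 0.716. Being La-related does not by itself make larp-1 a gene of tRNA maturation, and its peak was the strongest of the 6. The peaks at rpac-19, tftc-1, xpo-3 and larp-1 also lay in promoter windows of tbg-1, ppgn-1, C49H3.3 and wip-1. The gene of the largest polymerase III subunit, rpc-1, the TFIIIB genes brf-1 and tbp-1, the repressor gene mafr-1 and hoe-1, whose product trims the 3′ end of tRNAs, had no optimal summit in their windows.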

How the data were processed

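The authors deposited peak lists of both replicates, of the pooled replicates (30000 regions each) and an optimal list, with 1 control alignment shared by both replicates, per the text deposited beside the lists. The deposited signal is the peak caller's value for a region, on its own scale in each list. What aligned the reads and called the peaks, and at which reproducibility threshold, is not given in the sources used here. The control was not analysed here. The ce11 lists were read with Ensembl release 115 genes and the matching RefSeq genome. Amino acids came from RefSeq for 607 of the 612 tRNA genes, and anticodons were read from a loop of 7 bases closed by 5 pairs, kept where they fit the amino acid (599 genes). A replicate region was matched to a peak when its summit lay within 100 bp, and relative signal is its signal divided by that replicate's median over matched optimal peaks. Named genes are those at the 15 strongest peaks, the 5 strongest on X and in introns, the 3 clusters with most peaks, the 3 highest and lowest replicate ratios and the marked pseudogenes. The arginine ACG genes, K11H12.t1, Y38E10A.t1, the identical pair and W09D6.t1 were named after their values were seen. Members and lists were chosen with earlier results of these data known, and the descriptions of unique 36-base stretches, surroundings, summit windows and region widths were added after the lists were read. There was 1 group, so no test was run, and intervals are 95% exact binomial over genes or peaks, covering counting error only and treating neighbours as independent. Positions and counts were checked on simulated regions. Python 3.11.15, numpy 2.4.6, pandas 2.3.3, scipy 1.17.1 and matplotlib 3.10.9 were used.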

Additional observations from a re-analysis of the deposited data

How the results depend on the processing

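Of 65 alternative values for the main results, 50 stayed within the interval of the reported value (or within 1.5 times a count) and 15 moved. The median log2 replicate ratio, -0.019 in the main setting, was 0.047 with summits matched within 50 bp and 0.029 within 200 bp. It was 0.032 with the 3631 strongest optimal peaks. These values differ in sign from the main one but lie within its interval, -0.092 to 0.098. With the 3631 strongest optimal peaks, 131 peaks and 151 marked genes remained, the median relative signal was 1.253, 93.89% of the peaks were found in both replicates, and the share of marked genes was 29.35% on X, 18.73% in introns and 24.15% in clusters. With tRNA genes in 1 copy, there were 48 peaks and 48 marked genes, and 29.17% of summits were upstream. With a limit of 100 bp, 49.64% of genes on X and 45.34% of clustered genes were marked, and with 500 bp, 63.56% of clustered genes. The share of peaks found in both replicates was 53.33% with summits matched within 50 bp and 94.81% with any relaxed region counted. Leaving out a replicate gave 265 to 267 peaks, 298 to 301 marked genes, a median position of 16 to 25 bp, 34.46 to 40% of summits upstream, a relative signal of 0.954 to 0.975, and marked shares of 53.62 to 55.8% on X, 41.34 to 48.06% in introns and 53.81% in clusters. The share on X was above that on autosomes with limits of 100 and 500 bp, with the strongest peaks and without either replicate, and the split was not computed for genes in 1 copy. Intronic genes were marked in 48.06% against 50.16% between genes without replicate 1, and in 41.34% against 54.86% without replicate 2. The difference between clustered and single genes was 24.15% against 25% with the strongest peaks. Depth is unknown, the replicates share a control, and no untagged strain was analysed. The causes of these shifts were not tested. No paired analysis was possible because there was 1 group.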
